A study of Mus musculus with 25 samples.

Results

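Phase II enzymes of the liver attach glucuronic acid, glutathione or sulphate to drugs, hormones and reactive metabolites. They were taken here as all genes on the array whose symbol begins with Ugt1, Ugt2 or Ugt3 (UDP-glucuronosyltransferases), with Gst and a class letter a, k, m, o, p, t or z (soluble glutathione transferases), with Mgst (membrane-bound glutathione transferases) or with Sult (sulphotransferases). Of 59 such genes, 55 gave a signal that cleared the background in 5 or more of the 25 mice, among 15104 genes tested in all. They were 14 Ugt, 21 Gst, 3 Mgst and 17 Sult genes. Gstt4, with a signal on 2 arrays, and Sult1c1, Sult6b1 and Sult6b2, with a signal on 0 arrays, were left out by that filter.

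Glucuronosyltransferases sit in the endoplasmic reticulum and use UDP-glucuronic acid, soluble glutathione transferases use glutathione in the cytosol, and sulphotransferases use the donor PAPS. Hepatocytes express most of them at high levels, partly under the control of nuclear receptors that sense drugs and hormones, and inflammatory cytokines are known to lower many of them. Sult1e1, the oestrogen sulphotransferase, inactivates oestrogens and is usually low in mouse liver.

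Livers came from female C57BL/6 mice (strain label C57BL/6NcrSlc, age not given in the labels), in 5 groups of 5 separate mice, with 1 single-colour Agilent array for each mouse. The lectin concanavalin A (ConA), which activates T cells and causes immune-mediated hepatitis in mice, was injected at 10 mg/kg in 4 groups. After a further 15 min these mice received either BW245C at 1 mg/kg, an agonist of the prostaglandin D2 receptor DP1, or vehicle, into the peritoneum. The groups were ConA with BW245C at 24 hr, ConA with vehicle at 24 hr, ConA with BW245C at 3 hr, ConA with vehicle at 3 hr, and untreated. Below, BW245C mice and vehicle mice all carried ConA, the untreated mice had neither the lectin nor a vehicle injection, and mice given BW245C alone were not analysed here.

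A level is the log2 of a probe's processed signal over the 75th percentile of its array, so levels of different genes are not compared. A gene was called changed where limma's adjusted p over all 15104 genes was under 0.05, and these p-values measure the spread between the mice used. Between 52.2% and 61.6% of spots on an array were well above background. All 12 hepatocyte markers were measured, and their summed signal, as a ratio to the array's 75th percentile, was 8307 to 10864 in BW245C mice and 7455 to 9559 in vehicle mice at 24 hr, 11198 to 13095 in BW245C mice and 11956 to 15959 in vehicle mice at 3 hr, and 10013 to 11694 in untreated mice. The summed signal of 12 of 13 neutrophil markers was 944 to 1060 in BW245C mice and 1108 to 1177 in vehicle mice at 24 hr, against 124 to 134 in untreated mice. Bright markers weigh most in such a sum: the median log2 change of these 12 was -1.70 in BW245C against vehicle mice at 24 hr. Markers of other cells moved too in vehicle mice at 24 hr against untreated mice. Of 12 measured T and NK cell markers 11 were higher (median log2 change 2.47). Of 8 Kupffer cell markers 6 were lower (-1.40), and of 8 sinusoidal endothelial markers 6 were lower and 1 higher (-0.96). Over all genes 29.8% were higher and 39.1% lower in this comparison, and the Kupffer and endothelial lists hold only 8 genes each. The summed Kupffer signal was 23.7 to 53.1 in BW245C mice and 17.2 to 39.1 in vehicle mice at 24 hr, against 78.2 to 121 in untreated mice. The part of these cell types in the changes of the conjugating enzymes was not tested, and in whole liver fewer hepatocytes and less RNA per hepatocyte cannot be told apart. The arrays came from 5 slides that were unevenly shared by the groups, and no slide held both untreated mice and vehicle mice at 24 hr.

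After ConA and vehicle at 3 hr, 12 of the 55 genes were called changed against untreated livers, and up to 28 under another scaling. Of all genes tested, 62.0% were called in this comparison under the reported scaling. At 24 hr most of the 55 genes were lower after ConA and vehicle than in untreated livers, against 39.1% of all genes. BW245C mice at 24 hr had higher levels of 35 of the 55 than vehicle mice, against 17.6% of all genes. Sult1e1 went the other way at 24 hr in both respects.

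**Figure D1:**
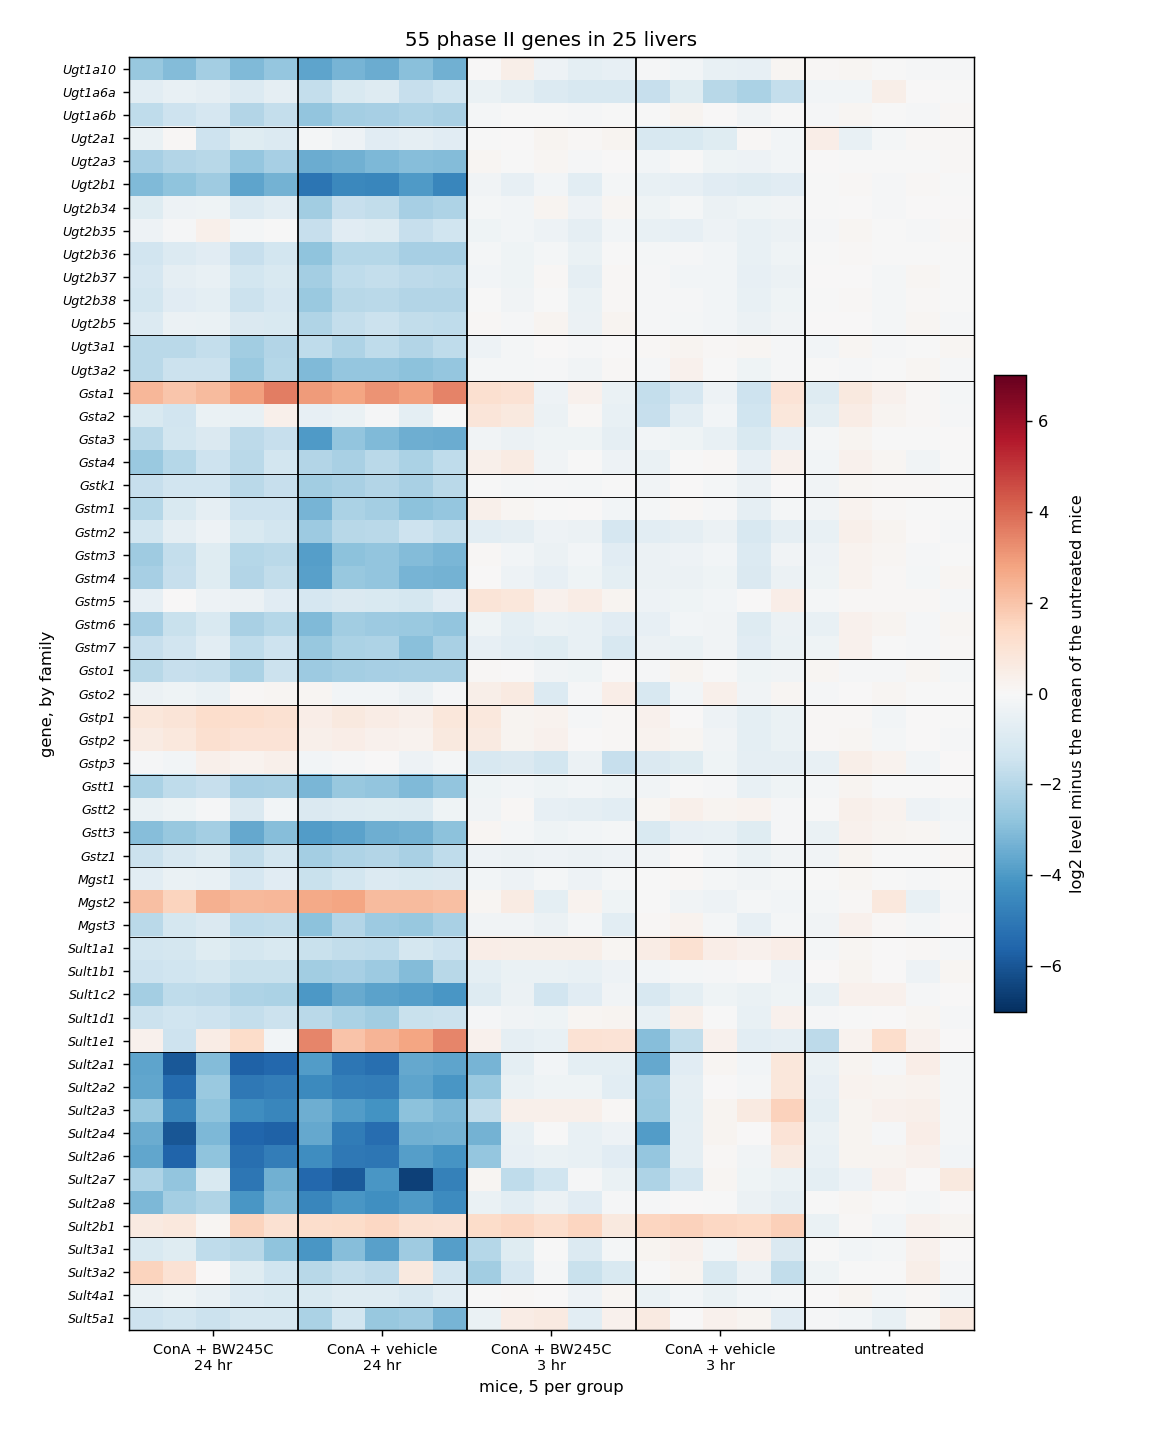
Each row is 1 of the 55 genes, ordered by family, and each column 1 of the 25 mice. The colour gives the log2 level minus the mean of the 5 untreated mice, with values between -6.52 and 3.61. The vehicle mice at 24 hr have the most blue cells, the BW245C mice at 24 hr are paler in most rows, and Gsta1 and Mgst2 are red in both groups, while Sult1e1 is red in the vehicle mice at 24 hr and pale in the BW245C mice at 24 hr.

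The promoters of Sult1e1 and Gsta1, genes that rose at 24 hr, and of Gsta3, which fell, are shown because these genes led the comparisons below. The sequences are the 250 bases before the transcription start in RefSeq's annotation of GRCm38.p6, written 5' to 3' on the strand of the gene. They lie at chr5:87591612-87591861 on the minus strand for Sult1e1, at chr9:78230419-78230668 on the plus strand for Gsta1, and at chr1:21240335-21240584 on the plus strand for Gsta3. Capitals mark matches on either strand to the letters searched: for NF-kB, GGGA and CC with any 4 bases between them, in Sult1e1, 87 to 78 bases before the start. In Gsta1 they mark TTCNNNGAA for STAT, 162 to 154 bases before the start, and the NF-kB letters, 58 to 49 bases before it. In Gsta3 they mark TTGCNNAA for C/EBP, 137 to 130 bases before the start, and TGACNNNGC, the core of the antioxidant response element, 121 to 113 bases before it.
Sult1e1: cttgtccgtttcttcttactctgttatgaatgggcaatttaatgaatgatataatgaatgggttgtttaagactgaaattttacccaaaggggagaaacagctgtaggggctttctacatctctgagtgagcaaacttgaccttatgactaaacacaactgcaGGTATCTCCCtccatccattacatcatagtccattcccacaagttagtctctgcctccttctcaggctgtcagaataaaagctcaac
Gsta1: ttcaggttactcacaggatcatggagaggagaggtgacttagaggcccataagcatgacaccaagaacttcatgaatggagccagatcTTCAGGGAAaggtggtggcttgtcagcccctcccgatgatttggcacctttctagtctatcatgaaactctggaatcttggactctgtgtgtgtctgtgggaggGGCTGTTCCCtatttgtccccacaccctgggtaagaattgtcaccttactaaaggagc
Gsta3: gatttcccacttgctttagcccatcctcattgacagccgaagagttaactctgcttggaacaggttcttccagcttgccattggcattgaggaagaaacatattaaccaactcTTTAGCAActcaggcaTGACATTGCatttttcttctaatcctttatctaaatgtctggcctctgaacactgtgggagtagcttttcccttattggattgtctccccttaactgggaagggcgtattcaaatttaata

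Promoters were on hand for 47 of the 55 genes and 6 motifs were searched in them on both strands, with matches that may overlap. Some genes have several promoters, so these 47 genes had 59 promoters, and shares are of promoters. The NF-kB letters were in 10 of the 59 (16.9%), against 17.6% of all 32851 promoters of this length. The STAT letters were in 4 (6.78%), against 7.02% of all promoters, and the antioxidant response element core was in 4 (6.78%, of Gsta3, Gstm5, Gstm7 and Mgst1), against 10.2%. The C/EBP letters were in 10 (16.9%), against 9.56%, and the xenobiotic response element TNGCGTG was in 2 (3.39%, of Gsta2 and Sult1d1), against 4.1%. The HNF1 letters, GTTAAT and ATT with any 1 base between them, in 0.371% of all promoters, were in 5 (8.47%), of Sult1d1, Sult2a3, Sult2a4, Sult2a6 and Ugt1a10. A match describes letters in this window and is no evidence of binding.

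ConA with vehicle was first compared with no treatment at 3 hr, to see what the lectin changed early. Of the 55 genes, 2 were higher and 10 lower, while 62.0% of all genes tested were called in this comparison (25% higher and 37.0% lower). The median log2 change of the 55 genes was -0.24, against -0.09 over all genes. The 5 vehicle mice did not overlap the 5 untreated mice for 2 genes that were higher and 8 that were lower, against 18.2% and 29.2% of all genes. By family, 4 of 14 Ugt, 5 of 21 Gst and 1 of 17 Sult genes fell, 2 Sult genes rose, and none of the 3 Mgst genes was called, with log2 changes between -0.18 and -0.10. The count of 12 depended on the scaling: it was 20 with normexp background correction (2 higher, 18 lower), 28 with quantile normalization (2 higher, 26 lower) and 27 with the authors' deposited matrix (2 higher, 25 lower). With the slide as a fixed block, that is, as a term in the fit, 7 were called, within slide 1 there were 4 (1 higher, 3 lower) and within slide 2 there were 9 (2 higher, 7 lower). A slide with 1 mouse of a group rests on the assumption that this mouse varies like the others. The share of 62.0% belongs to the reported setting. Shares of all genes under the other settings are not given here, so these counts cannot be set against all genes.

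Ugt1a6a, a transferase for small planar phenols, had the lowest fitted change at 3 hr, on a dim probe. Its log2 level was -4.32, -3.53, -4.63, -4.92 and -4.36 in vehicle mice at 3 hr, against -2.90, -2.88, -2.32, -2.68 and -2.76 in untreated mice. Every vehicle mouse was below every untreated mouse, and 1 of the 5 vehicle arrays had the probe well above background. The log2 change was -1.64 (SE 0.20, 3.12-fold lower, limma adjusted p = 1.94e-07), and it was -1.54 under a slide block, -1.96 within slide 1, -1.05 within slide 2 and -0.34 with normexp background correction, where it was still called. With most vehicle arrays near background, the size of this fall is uncertain. Ugt1a6b, the neighbouring isoform from the same locus, had a log2 change of -0.03, and its other probe was at -0.47. The probes of Ugt1 isoforms, which share their last exons, may not be fully separate measures.

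Ugt2b1, a transferase for steroids and drugs, had a log2 level of 3.47, 3.40, 3.19, 3.08 and 3.20 in vehicle mice at 3 hr, against 3.94, 4.03, 3.88, 4.07 and 3.92 in untreated mice. The groups did not overlap, and the level fell by 0.70 on the log2 scale (SE 0.19, 1.63-fold, adjusted p = 0.00248). Gstm2, a mu-class glutathione transferase, had 4.97, 5.03, 5.28, 4.57 and 5.07 in vehicle mice, against 5.18, 6.03, 5.86, 5.73 and 5.61 in untreated mice. These ranges overlapped because of 1 untreated mouse at 5.18, and the log2 change of -0.70 (SE 0.21, 1.62-fold lower, adjusted p = 0.00663) lost its call once slide was a block (-0.57, adjusted p = 0.0688). The other genes that fell at 3 hr were Gsta3, Gstm7, Gstp3, Gstt3, Sult1c2, Ugt2a1 and Ugt2b35, with log2 changes between -0.68 and -0.48, and of these Gsta3, Gstm7, Gstt3, Sult1c2 and Ugt2b35 lost their calls under a slide block. The 2 probes of Ugt2b35 differed in sign, at -0.48 and 0.14.

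Sult2b1, which sulphates cholesterol, and Sult1a1, the main phenol sulphotransferase, were the 2 genes that rose at 3 hr. Sult2b1 had a log2 level of -3.60, -3.49, -3.64, -3.71 and -3.44 in vehicle mice, against -5.54, -4.99, -5.26, -4.77 and -4.87 in untreated mice. Sult2b1 was not well above background in any untreated mouse, and it passed the filter only through mice given ConA. The filter thus favoured a rise, and the p-value is no separate support for it. The rise is a bound of at least 2.15-fold (limma adjusted p = 6.22e-07). That is the mean of the vehicle mice over the lowest signal well above background on each untreated array. This bound depends on the background correction: with normexp the log2 change was 0.51, against 1.51 here, and was still called. Sult1a1 had 7.97, 8.52, 7.96, 7.80 and 7.94 in vehicle mice, against 7.34, 7.60, 7.49, 7.57 and 7.38 in untreated mice. All vehicle mice were above all untreated mice, and the log2 change was 0.56 (SE 0.13, 1.48-fold, adjusted p = 0.000461).

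Sult1e1 varied widely between mice at 3 hr. Its log2 level was -2.94, -1.69, 0.34, -0.73 and -0.58 in vehicle mice, against -1.79, 0.29, 1.25, 0.33 and 0.05 in untreated mice. The ranges overlapped and the log2 change of -1.14 (SE 0.58, adjusted p = 0.0918) was not called. It passed the threshold without 1 mouse, at -1.60 without the untreated mouse at -1.79 and at -1.51 without the vehicle mouse at 0.34, and within slides it was 0.38 in slide 1, which held 1 vehicle mouse and 4 untreated mice, and -2.60 in slide 2, which held 2 vehicle mice and 1 untreated mouse.

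**Figure D2:**
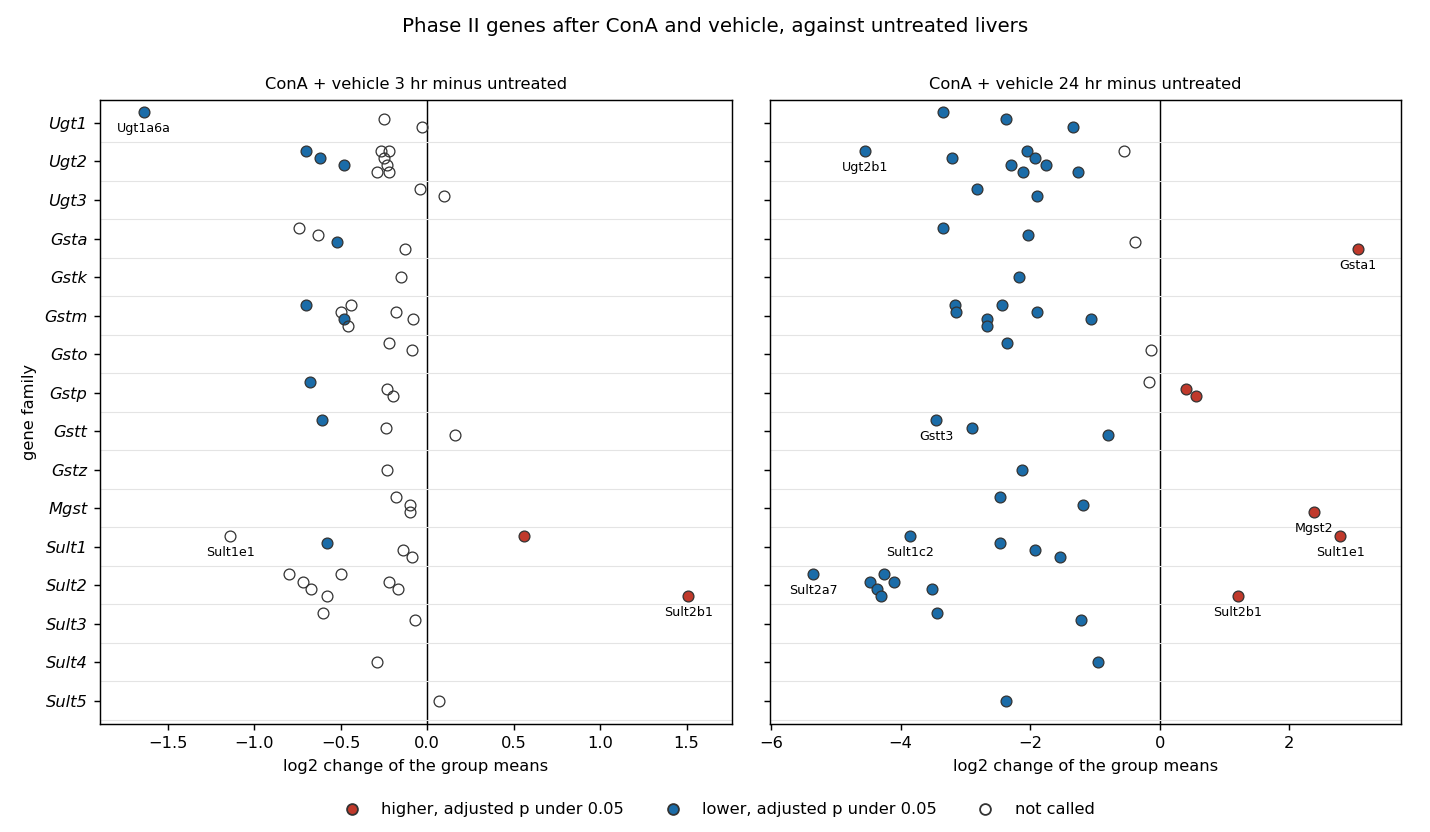
Log2 change of each of the 55 genes in vehicle mice minus untreated mice, at 3 hr on the left and at 24 hr on the right, with families down the page and different horizontal scales in the panels. Filled points passed an adjusted p of 0.05 (red higher, blue lower) and open points did not. At 3 hr 43 points are open, and at 24 hr 45 are blue and 6 red.

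By 24 hr after ConA and vehicle the pattern was different. Of the 55 genes, 45 were lower and 6 higher than in untreated mice, while 68.9% of all genes were called (39.1% lower and 29.8% higher). The median log2 change was -2.18, against -0.08 over all genes. By at least 2-fold 43 of the 55 genes were called lower, against 2257 of all 15104 genes. The mice of both groups did not overlap for 43 genes that were lower and 6 that were higher, against 36.7% and 27.4% of all genes. With the authors' deposited matrix, whose scaling moved the median of all genes to 0.26, the median of the 55 genes was -1.84 and 44 were lower. With the slide as a fixed block 43 were lower and 5 higher. Since no slide held both groups, slide-block values for this comparison are indirect and linked only through mice of other groups.

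The glucuronosyltransferases fell almost throughout: 13 of 14 were lower, with a median log2 change of -2.08, and Ugt2a1, known from olfactory tissue, was at -0.55 (adjusted p = 0.0512). Ugt2b1 fell most among them. Its log2 level was -1.14, -0.55, -0.58, -0.02 and -0.61 in vehicle mice at 24 hr, against 3.94, 4.03, 3.88, 4.07 and 3.92 in untreated mice. The groups lay far apart, with a log2 change of -4.55 (SE 0.19, 23.4-fold lower, adjusted p = 5.45e-15). The others ranged from Ugt1a10 at -3.34 and Ugt2a3 at -3.20, the second a transferase for bile acids, to Ugt2b35 at -1.26, whose other probe was at -0.42. Ugt2b34, Ugt2b36, Ugt2b37, Ugt2b38 and Ugt2b5, closely related genes on chromosome 5, fell by 2.05, 2.30, 1.92, 2.11 and 1.76 on the log2 scale. Ugt3a1 and Ugt3a2, which in humans use sugar donors other than glucuronic acid, were at -1.90 and -2.82.

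Among the soluble glutathione transferases 15 of 21 fell and 3 rose. All 7 Gstm genes, the mu class, fell, with log2 changes between -3.16 (Gstm3) and -1.06 (Gstm5). Gsta3, an alpha-class enzyme that is abundant in mouse liver and detoxifies the epoxide of aflatoxin, had a log2 level of 5.19, 6.35, 6.05, 5.73 and 5.65 in vehicle mice at 24 hr, against 9.01, 9.31, 9.08, 9.08 and 9.18 in untreated mice. No vehicle mouse came near the untreated range, and the change was -3.34 (SE 0.19, 10.1-fold lower, adjusted p = 5.08e-13). The theta-class genes Gstt1, Gstt2 and Gstt3 were at -2.90, -0.80 and -3.45, where the call of Gstt2 was lost under a slide block (adjusted p = 0.0561). Gstk1, an enzyme of mitochondria and peroxisomes, was at -2.18, Gsto1 of the omega class at -2.36, and Gstz1, which isomerises maleylacetoacetate in tyrosine breakdown, at -2.12. Gsta2, Gsto2 and Gstp3 were not called, at -0.38, -0.14 and -0.16.

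Gsta1, another alpha-class gene, rose instead. Its log2 level was 4.82, 4.62, 5.01, 4.72 and 5.32 in vehicle mice at 24 hr, against 0.93, 2.52, 2.16, 1.92 and 1.68 in untreated mice. The lowest vehicle mouse lay well above the highest untreated mouse, and the change was 3.06 (SE 0.43, 8.32-fold higher, adjusted p = 1.08e-06). Gstp1, of the pi class, had 5.82, 6.04, 5.90, 5.75 and 6.15 in vehicle mice, against 5.46, 5.46, 5.19, 5.42 and 5.34 in untreated mice. That is a small rise without overlap, of 0.56 (SE 0.16, 1.47-fold, adjusted p = 0.00309). Gstp2, a near-identical copy whose probe may read both transcripts, changed by 0.40 (adjusted p = 0.0250).

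The membrane-bound enzymes split. Mgst2, which can form leukotriene C4, had a log2 level of -1.09, -0.98, -1.48, -1.51 and -1.59 in vehicle mice at 24 hr, against -3.88, -3.65, -3.00, -4.25 and -3.80 in untreated mice. Every vehicle mouse was higher, and the change was 2.38 (SE 0.22, 5.21-fold, adjusted p = 1.88e-09), and 1.02, still called, with normexp background correction. Mgst1, an abundant enzyme of the hepatocyte's endoplasmic reticulum, fell by 1.18 on the log2 scale (SE 0.12), and Mgst3 by 2.47 (SE 0.18).

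The sulphotransferases had the widest range at 24 hr, with 15 of 17 lower, 2 higher and a median log2 change of -3.44. The Sult2a genes, which sulphate hydroxysteroids and bile acids, fell by 3.52 to 5.35 on the log2 scale, most of all in Sult2a7. Sult2a7 had a log2 level of -1.52, -1.88, -0.12, -2.54 and -0.77 in vehicle mice, against 3.27, 3.65, 4.29, 4.00 and 4.69 in untreated mice. The groups were far apart although the mice within each differed, and the change was -5.35 (SE 0.59, 40.7-fold lower, adjusted p = 2.88e-08), and -3.99 under a slide block. Sult2a6 had 2.61, 1.97, 1.89, 3.14 and 2.85 in vehicle mice, against 6.47, 7.18, 7.14, 7.27 and 6.79 in untreated mice. It likewise showed no overlap and changed by -4.48 (SE 0.55, 22.3-fold lower, adjusted p = 1.71e-07), and -3.69 under a slide block, with its 3 probes between -4.48 and -2.10. Sult2a1, Sult2a2, Sult2a3, Sult2a4 and Sult2a8 were at -4.31, -4.37, -3.52, -4.11 and -4.26, and Sult2a4 lost its call under a slide block. Sult2a genes are near-identical copies in 1 cluster on chromosome 7, so a probe of one may also read another.

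Outside the Sult2a cluster, Sult1c2 had a log2 level of -2.04, -1.55, -1.76, -1.89 and -2.08 in vehicle mice, against 1.48, 2.27, 2.30, 1.88 and 2.00 in untreated mice. The spread within each group was small beside the change of -3.85 (SE 0.20, 14.4-fold lower, adjusted p = 1.15e-13). Sult3a1, which acts on amines, was at -3.44, Sult1b1, which sulphates thyroid hormones, at -2.46, Sult5a1 at -2.37 and Sult1d1, which sulphates catecholamines, at -1.93. Sult1a1, higher at 3 hr, was at -1.54 (2.92-fold lower, adjusted p = 1.76e-10) at 24 hr. Sult4a1, best known from brain, was at -0.95, and Sult3a2 was at -1.22 with an adjusted p of 0.0495, a call that was lost under 2 of 4 other scalings and under a slide block.

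Among the sulphotransferases, Sult1e1 and Sult2b1 were higher at 24 hr. The log2 level of Sult1e1 was 3.44, 2.04, 2.38, 2.77 and 3.43 in vehicle mice at 24 hr, against -1.79, 0.29, 1.25, 0.33 and 0.05 in untreated mice. All vehicle mice were above all untreated mice, and the change was 2.79 (SE 0.58, 6.90-fold higher, adjusted p = 0.000191), and 3.51 under a slide block (adjusted p = 0.0117). Against the vehicle mice at 3 hr, the vehicle mice at 24 hr were higher by 3.93 (SE 0.58, 15.3-fold, adjusted p = 2.45e-06). Within slide 3, which held 1 vehicle mouse at 24 hr, the difference was 4.09. Sult2b1 remained higher than in untreated mice, at least 1.75-fold at 24 hr (adjusted p = 1.07e-05), with the same limit from the filter as at 3 hr. This call did not survive a slide block (log2 change 0.73, adjusted p = 0.102) or 1 of 4 other scalings, where the change was 0.10.

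**Figure D3:**
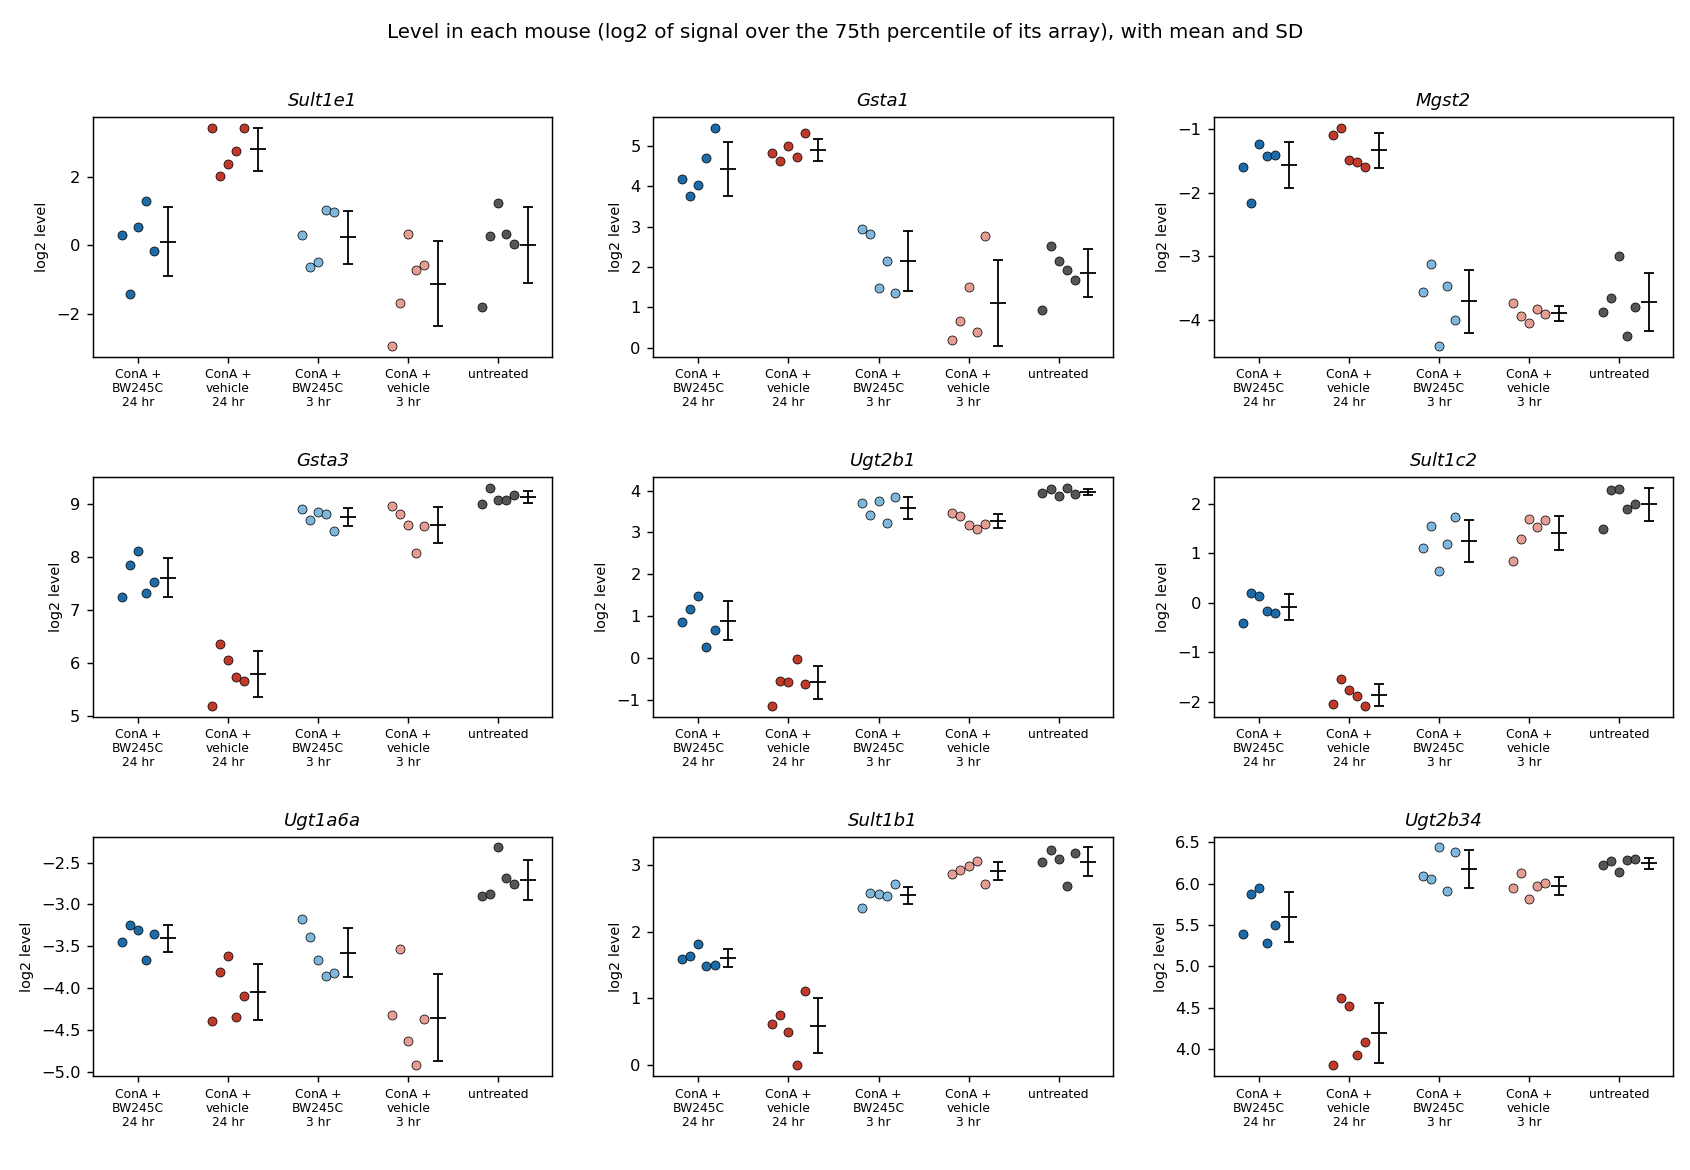
Log2 level of 9 genes in each mouse, 1 panel for each gene, with the 5 groups along the horizontal axis and the mean and SD of 5 mice beside the points. The vertical scales differ between panels. Sult1e1 stands at 2.81 ± 0.63 in vehicle mice at 24 hr and at 0.11 ± 1.00 in BW245C mice at 24 hr, and Gsta3, Ugt2b1, Sult1c2, Sult1b1 and Ugt2b34 are lowest in the vehicle mice at 24 hr.

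The comparison of the vehicle mice at 24 hr with those at 3 hr gave 43 lower and 6 higher genes of 55, while 68.4% of all genes were called (35.3% lower and 33.2% higher). The median log2 change was -2.04, against -0.03 over all genes. Slide 3 held 1 vehicle mouse at 24 hr and 2 at 3 hr, and a count within this slide is not given here. The comparison between the times shares the vehicle mice with those above and is no separate evidence for them.

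BW245C was then compared with vehicle, first at 3 hr. Of the 55 genes, 5 were higher and 1 was lower in BW245C mice, while 28.6% of all genes were called (11.8% higher and 16.9% lower), and the median log2 change was 0.04, against -0.04 over all genes. No higher gene and 1 lower gene, Sult1b1, which was not called, had groups without overlap, against 3.99% and 9.50% of all genes. The count of 6 was 3 with the slide as a fixed block and 3, all higher, within slide 3, and it was 10 (9 higher, 1 lower) with the authors' deposited matrix. Ugt1a6a had a log2 level of -3.17, -3.39, -3.66, -3.85 and -3.82 in BW245C mice, against -4.32, -3.53, -4.63, -4.92 and -4.36 in vehicle mice. The vehicle mouse at -3.53 lay within the BW245C range. The change was 0.77 (SE 0.20, 1.71-fold higher, adjusted p = 0.00702), and 1.07 under a slide block, but 0.14 with normexp background correction and 0.59 with quantile normalization, where it was not called.

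Gstm5 had 3.38, 3.27, 2.78, 3.04 and 2.71 in BW245C mice at 3 hr, against 2.14, 2.18, 2.30, 2.52 and 2.94 in vehicle mice. The vehicle mouse at 2.94 lay within the BW245C range, and the change was 0.62 (SE 0.16, 1.54-fold higher, adjusted p = 0.00631), a call that was lost under a slide block (0.40, adjusted p = 0.173). Gstt2 had 2.80, 3.10, 2.49, 2.43 and 2.31 in BW245C mice, against 3.20, 3.37, 3.21, 3.29 and 2.94 in vehicle mice. The vehicle mouse at 2.94 and 1 BW245C mouse at 3.10 crossed over. It was the 1 gene that was lower, by 0.58 on the log2 scale (SE 0.18, 1.49-fold, adjusted p = 0.0207), and this call too was lost under a slide block (adjusted p = 0.255), without the vehicle mouse at 3.37 and without the BW245C mouse at 2.31 (log2 changes of -0.53 and -0.50). Gstp1, Gstp2 and Ugt2a1 were higher, at 0.47, 0.44 and 0.71, where Ugt2a1 lost its call under a slide block. Sult1e1 was at 0.30, -0.63, -0.47, 1.04 and 0.97 in BW245C mice, against -2.94, -1.69, 0.34, -0.73 and -0.58 in vehicle mice. Most BW245C mice were above most vehicle mice, but the change of 1.36 (SE 0.58, adjusted p = 0.0809) was not called, except without the vehicle mouse at 0.34, where it was 1.73.

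At 24 hr BW245C mice had higher levels of 35 of the 55 genes than vehicle mice and a lower level of 1, while 26.6% of all genes were called (17.6% higher and 8.95% lower). The median log2 change was 0.65, against 0.01 over all genes. By at least 2-fold 16 of the 55 genes were called higher, against 331 of all 15104 genes. The mice of both groups did not overlap for 24 genes that were higher and 1 that was lower, against 12% and 5.41% of all genes. Within slide 4, which held 3 BW245C mice and 4 vehicle mice, 26 were higher and 1 lower. The share of all genes called within this slide is not given here. Over the 12 neutrophil markers measured, 8 were lower in BW245C mice, all 8 by at least 2-fold, with a median log2 change of -1.70. Over the 12 hepatocyte markers 3 were higher, with a median log2 change of 0.19.

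Of the glucuronosyltransferases 12 of 14 were higher, with a median of 0.95. Ugt2b34 had a log2 level of 5.39, 5.88, 5.95, 5.28 and 5.50 in BW245C mice, against 3.80, 4.62, 4.52, 3.93 and 4.09 in vehicle mice. No mouse of either group reached the range of the other, and the change was 1.41 (SE 0.15, 2.65-fold higher, adjusted p = 3.15e-06). Ugt2b1 had 0.87, 1.17, 1.48, 0.26 and 0.67 in BW245C mice, against -1.14, -0.55, -0.58, -0.02 and -0.61 in vehicle mice. It was higher without overlap, by 1.47 (SE 0.19, 2.77-fold, adjusted p = 1.35e-05). The other 7 Ugt2 genes ranged from Ugt2a1, not called at -0.17, to Ugt2b35 at 1.20, and the 3 Ugt1 genes from 0.57 to 0.77, of which Ugt1a10 and Ugt1a6a lost their calls under a slide block. Ugt3a2 was at 0.92 and Ugt3a1 at -0.08 (SE 0.12), not called.

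Of the soluble glutathione transferases 14 of 21 were higher. Gsta3 had a log2 level of 7.24, 7.84, 8.12, 7.32 and 7.52 in BW245C mice, against 5.19, 6.35, 6.05, 5.73 and 5.65 in vehicle mice. Each BW245C mouse was above every vehicle mouse, and the change was 1.81 (SE 0.19, 3.51-fold higher, adjusted p = 2.71e-06). All 7 Gstm genes were higher, with changes between 0.63 (Gstm5) and 1.43 (Gstm4). Gstt1, Gstz1, Gstk1 and Gsto1 were at 0.86, 0.81, 0.62 and 0.58. Gstp1 and Gstp2 were both at 0.47, with calls that were lost under a slide block (adjusted p = 0.101 and 0.0974). Gsta1 had 4.18, 3.77, 4.04, 4.71 and 5.45 in BW245C mice, against 4.82, 4.62, 5.01, 4.72 and 5.32 in vehicle mice, and these overlapping levels gave a change of -0.47 (SE 0.43, adjusted p = 0.441). Mgst2 was not called either, at -0.23 (SE 0.22, adjusted p = 0.462), while Mgst1 and Mgst3 were higher by 0.43 and 0.93.

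**Figure D4:**
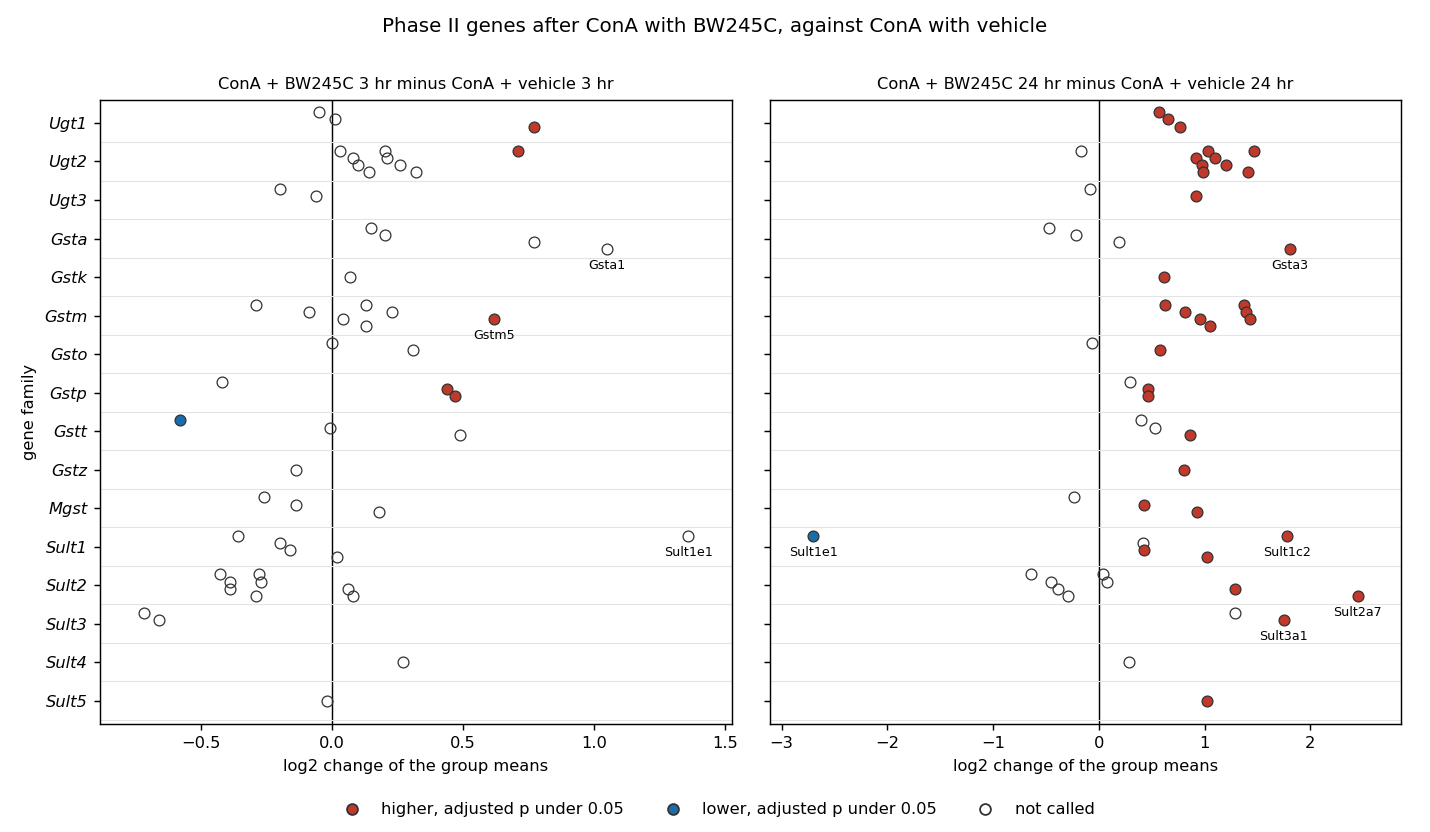
Log2 change of each of the 55 genes in BW245C mice minus vehicle mice, at 3 hr on the left and at 24 hr on the right, with families down the page and different horizontal scales in the panels. Filled points passed an adjusted p of 0.05 and open points did not. At 24 hr 35 points are red and Sult1e1, at -2.70, is the only blue one.

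Sult1e1 was the 1 gene that was lower with BW245C at 24 hr. Its log2 level was 0.30, -1.41, 0.53, 1.30 and -0.16 in BW245C mice, against 3.44, 2.04, 2.38, 2.77 and 3.43 in vehicle mice. The groups did not overlap, and the change was -2.70 (SE 0.58, 6.51-fold lower, adjusted p = 0.00148), -2.46 under a slide block and -2.59 within slide 4. Against the untreated mice, the BW245C mice at 24 hr differed by 0.08 (SE 0.58, adjusted p = 0.912). The promoter shown above holds 1 match to the NF-kB letters and none to the other 5 motifs.

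Of the 17 sulphotransferases 7 were higher with BW245C at 24 hr, 1 was lower and 9 were not called, with a median log2 change of 0.42. Sult1c2 had -0.41, 0.20, 0.14, -0.16 and -0.21 in BW245C mice, against -2.04, -1.55, -1.76, -1.89 and -2.08 in vehicle mice. It was higher in all BW245C mice, by 1.78 (SE 0.20, 3.43-fold, adjusted p = 4.54e-06). Sult1b1 had 1.59, 1.64, 1.82, 1.49 and 1.50 in BW245C mice, against 0.61, 0.75, 0.49, -0.01 and 1.11 in vehicle mice. Again there was no overlap, with a change of 1.02 (SE 0.14, 2.02-fold higher, adjusted p = 3.31e-05). Sult5a1 was at 1.02 and Sult1a1 at 0.43, both losing their calls under a slide block.

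Of the 7 Sult2a genes, 2 were called with BW245C at 24 hr, both higher. Sult2a7 had 1.80, 1.23, 2.89, -1.09 and 0.62 in BW245C mice at 24 hr, against -1.52, -1.88, -0.12, -2.54 and -0.77 in vehicle mice. All but 1 of the BW245C mice were above the vehicle range, and the change was 2.45 (SE 0.59, 5.48-fold higher, adjusted p = 0.00353). Sult2a8, which in mice sulphates primary bile acids, had 3.34, 4.07, 4.35, 2.39 and 3.32 in BW245C mice, against 1.90, 2.38, 2.17, 2.51 and 2.09 in vehicle mice. The BW245C mouse at 2.39 was within the vehicle range, and the change was 1.29 (SE 0.24, 2.44-fold higher, adjusted p = 0.000525). Sult2a6, by contrast, had 3.33, 1.37, 4.13, 1.70 and 2.11 in BW245C mice, against 2.61, 1.97, 1.89, 3.14 and 2.85 in vehicle mice. The BW245C mice spread on both sides of the vehicle mice, and the change was 0.04 (SE 0.55, adjusted p = 0.970), while the 3 probes of this gene ranged from -1.16 to 0.04. Sult2a1, Sult2a2, Sult2a3 and Sult2a4 were not called either, with changes between -0.64 and 0.08 and adjusted p between 0.563 and 0.935. Whether these changes differ between Sult2a genes was not tested.

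The promoters of Sult2a3, Sult2a4 and Sult2a6 are shown because these genes gave no call with BW245C at 24 hr and hold the same HNF1 letters. The windows have 40 bases on each side of the match, which is in capitals, and lie on the minus strand at chr7:14123050-14123139, chr7:13989646-13989735 and chr7:14254892-14254981 (RefSeq, GRCm38.p6). The match lies 51 to 42 bases before the start in Sult2a3, 107 to 98 in Sult2a4 and 71 to 62 in Sult2a6.
Sult2a3: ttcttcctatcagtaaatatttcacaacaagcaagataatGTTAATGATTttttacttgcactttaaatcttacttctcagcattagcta
Sult2a4: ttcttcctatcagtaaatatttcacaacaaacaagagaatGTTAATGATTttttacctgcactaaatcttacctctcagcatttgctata
Sult2a6: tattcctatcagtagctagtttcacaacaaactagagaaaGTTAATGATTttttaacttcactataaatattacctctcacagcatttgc
Over the 90 bases, Sult2a3 and Sult2a4 share 67 letters without gaps, Sult2a3 and Sult2a6 share 54, and Sult2a4 and Sult2a6 share 50. The 2 promoters listed for Sult2a8 do not hold these letters, and no promoter was on hand for Sult2a1, Sult2a2 or Sult2a7. Outside the cluster, Ugt1a10 holds them and was called higher with BW245C at 24 hr (0.57), a call lost under a slide block. Sult1d1 holds them too and was not called. A link between the letters and the calls was not tested.

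Sult3a1 had 3.79, 4.02, 3.09, 2.94 and 2.02 in BW245C mice at 24 hr, against 0.80, 1.87, 1.04, 2.36 and 1.03 in vehicle mice. The change was 1.75 (SE 0.38, 3.36-fold higher, adjusted p = 0.00166), with overlap at the lowest BW245C mouse. Sult3a2 was at 1.29 (SE 0.54, adjusted p = 0.0797) and was not called.

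**Figure D5:**
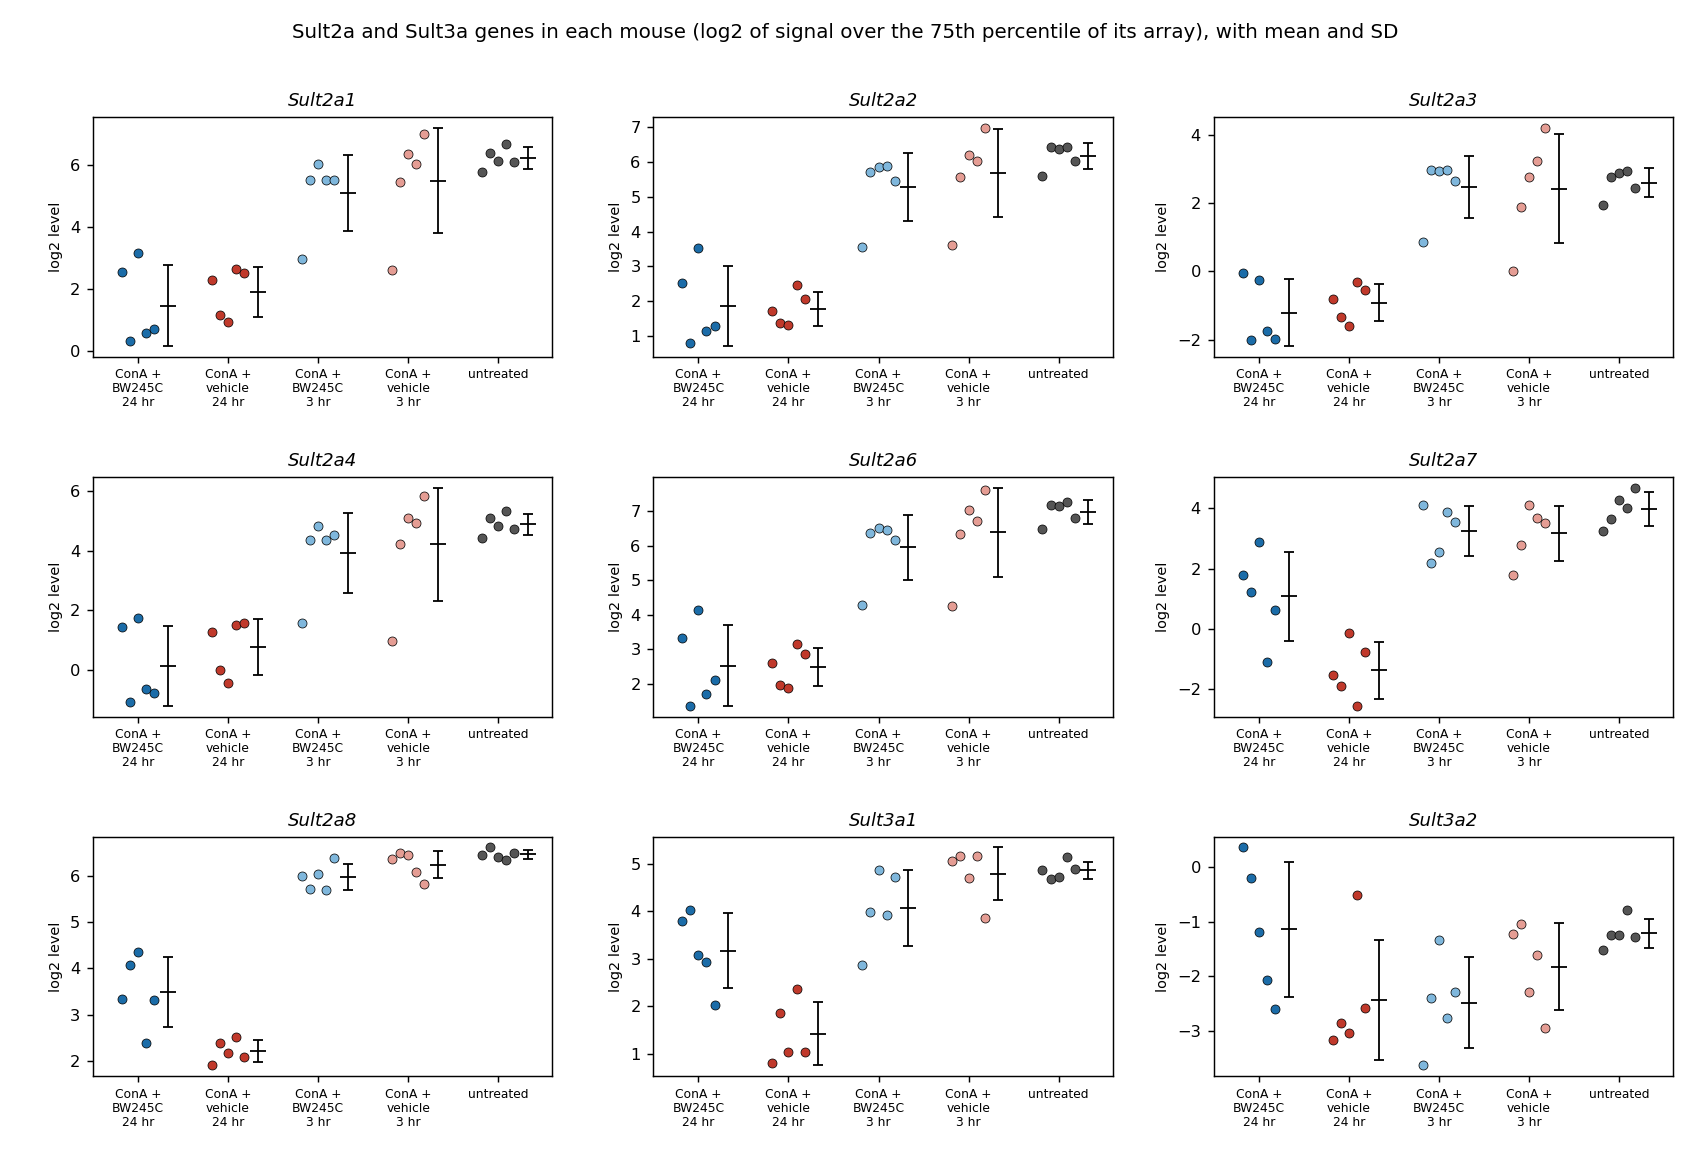
Log2 level of the 7 Sult2a genes and 2 Sult3a genes in each mouse, with the mean and SD of 5 mice beside the points and a vertical scale for each panel. Sult2a1 to Sult2a6 overlap between BW245C and vehicle mice at 24 hr, Sult2a7, Sult2a8 and Sult3a1 are higher in most BW245C mice, and 1 BW245C mouse and 1 vehicle mouse at 3 hr lie low in Sult2a1 to Sult2a6.

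Whether the effect of BW245C differed between 24 hr and 3 hr was tested as a difference of the 2 changes. Of the 55 genes, 31 had a higher and 1 a lower value at 24 hr, while 30.0% of all genes were called (19.3% higher and 10.8% lower). The difference was 1.94 for Sult1c2 (SE 0.28, adjusted p = 9.20e-05), 1.38 for Sult1b1 (SE 0.20, adjusted p = 0.000117), 1.66 for Gsta3 (SE 0.27, adjusted p = 0.000241) and -4.06 for Sult1e1 (SE 0.82, adjusted p = 0.00145). With the slide as a fixed block 5 of these 32 calls held, among them Sult1c2, Sult1b1 and Gsta3, and Sult1e1 was at -3.47 with an adjusted p of 0.0595. With the slide as a random block 22 were called.

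Against untreated mice, BW245C mice were also compared directly. These comparisons share the untreated mice with the vehicle comparisons, so their values are set side by side and not counted as agreement. At 24 hr 43 of the 55 genes were lower and 5 higher in BW245C mice, beside 56.6% of all genes (33.8% lower and 22.7% higher), and the median log2 change was -1.39, against -0.09 over all genes. Within slide 2, which held 1 BW245C mouse and 1 untreated mouse, 23 were lower and 3 higher, with the spread taken from all slides, so this count describes 1 pair of mice. The BW245C mice were at -1.53 for Gsta3 and the vehicle mice at -3.34, both as log2 changes from untreated. For Ugt2b1 the values were -3.08 in BW245C mice and -4.55 in vehicle mice, for Sult1c2 they were -2.07 in BW245C mice and -3.85 in vehicle mice, and for Sult2a6 they were -4.44 in BW245C mice and -4.48 in vehicle mice. Ugt2b35, at -1.26 in vehicle mice, was at -0.06 (SE 0.15, adjusted p = 0.755) in BW245C mice. Gsta1 and Mgst2 were higher than in untreated mice in the BW245C group too, at 2.59 (6.02-fold, adjusted p = 1.81e-05) and 2.15 (4.44-fold, adjusted p = 2.33e-08), and Gstp1 was at 1.03 (2.04-fold, adjusted p = 6.59e-06). At 3 hr 11 were lower and 3 higher in BW245C mice, beside 69.3% of all genes (42.3% lower and 27.0% higher).

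The genes that supply the donors of these reactions were listed as well. At 24 hr, in vehicle mice against untreated mice, 4 of 7 genes of UDP-glucuronic acid supply fell and 2 rose, 4 of 7 measured genes of PAPS supply fell, and 12 of 17 measured genes of glutathione synthesis and recycling fell and 2 rose. Over all genes 39.1% were lower and 29.8% higher in this comparison, and the counts for UDP-glucuronic acid supply rest on 7 genes. Papss2, which makes PAPS, was at -3.30 (SE 0.17, 9.88-fold lower, adjusted p = 1.55e-13). Cth, which makes cysteine for glutathione, was at -3.20, and Ugp2, which makes UDP-glucose, at -1.09, whereas Pgm2, a phosphoglucomutase, was at 1.50 and Gpx3, a secreted glutathione peroxidase, at 1.74. In BW245C mice against vehicle mice at 24 hr, Papss2 was higher by 0.94 (SE 0.17, adjusted p = 0.000392), Cth by 1.25 and Ugp2 by 0.33, Gpx3 was lower, at -0.59, and Pgm2 was not called, at -0.48.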

How the data were processed

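Liver RNA of 25 mice was measured on 1-colour Agilent arrays with 59305 spots. The deposited scanner files hold Cy3 intensity, background-subtracted and detrended by Feature Extraction (10.7.3.1 per the file headers, 9.1 per the submitters' processing notes). The deposited value table holds the same intensity times 1 factor for each array, whose rule is not given in the sources used here, and served as an alternative. From the deposited intensity, log2 levels were computed here by dividing by each array's 75th percentile. Control and flagged spots (0.232%) were left out, no spot was saturated, and spots of a probe were averaged. Probes were named through RefSeq (26582 of 55681), kept if well above background on at least 5 arrays, and the brightest probe stood for a gene. Some 18 of the 55 genes had several probes, which had the same sign in 18 of 18 for vehicle against untreated mice at 24 hr and in 17 for BW245C against vehicle mice at 24 hr. At 3 hr the signs agreed in 16 of 18 for vehicle against untreated mice and in 15 for BW245C against vehicle mice.

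A group-means model with 5 mice for each group was fitted to all 15104 genes with limma 3.58.1 in R 4.3.3, with Benjamini-Hochberg adjustment. The number of arrays limits the precision. Alternatives were the background correction (normexp with an offset of 50, on median signals since mean signals are not used here), the normalization, the filter, stricter thresholds, the slide or the replicate number as a block, and leaving out each mouse. The replicate numbers name different mice and did not pair them: over 50 pairs of same-numbered arrays the median correlation of deviations was -0.0136. The genes, lists and tests were chosen with earlier results of these data known. Genes given in full were Sult1e1 and the called genes with the 3 largest falls and 3 largest rises against untreated mice at each time (vehicle). The rule also took the 3 genes with the smallest p in each BW245C comparison with vehicle and in the interaction. Gstp1, Sult2a8 and Sult3a1 were given mouse by mouse outside this rule. Of each supporting list, those with the largest called fall and rise in each vehicle comparison could be named.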

Additional observations from a re-analysis of the deposited data

Results flagged for a closer look

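For the genes that the rule above gave in full, 80 groups of 5 mice were checked. Of these groups 4 held a mouse whose gap to its nearest neighbour exceeded 0.71 of the group's range, and chance gives about 1 in 20. These were Sult1a1 in vehicle replicate 2 at 3 hr (log2 level 8.52, nearest 7.97), Sult1a1 in BW245C replicate 5 at 3 hr (7.62, nearest 7.86), Sult2a6 in BW245C replicate 1 at 3 hr (4.28, nearest 6.15) and Gstt2 in vehicle replicate 5 at 24 hr (2.75, nearest 2.17).

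The interaction test of limma, for an effect of BW245C that differed between 24 hr and 3 hr, was checked here for only 4 genes. These were Sult1e1 and the 3 genes chosen for the smallest p in this test, and all 4 were called. Other genes passed it too, among them 8 of 9 Ugt2 genes, which include Ugt2b1 and Ugt2b34. The log2 difference was -4.06 for Sult1e1 (adjusted p = 0.00145), 1.94 for Sult1c2 (adjusted p = 9.20e-05), 1.38 for Sult1b1 (adjusted p = 0.000117) and 1.66 for Gsta3 (adjusted p = 0.000241). With the slide as a fixed block Sult1e1 lost this call, and the other 3 kept it.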

How the results depend on the processing

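In no alternative did a gene called both there and in the reported setting change direction. Counts under an alternative are given without the share of all genes called there, so they show only how the count moved. For vehicle against untreated mice at 24 hr the reported 51 calls stayed between 47 and 52. For vehicle at 24 hr against 3 hr the reported 49 stayed between 42 and 53. For vehicle against untreated mice at 3 hr the reported 12 became 20 with normexp, 28 with quantile normalization, 27 with the deposited matrix, 7 with the slide as a fixed block, 19 with only the groups compared, 2 at 2-fold or more, 7 at an adjusted p under 0.01 and 4 within slide 1. For BW245C against vehicle at 3 hr the reported 6 became 10 with the deposited matrix, 3 with the slide block, 3 with only the groups compared, 0 at 2-fold or more, 2 under 0.01 and 3 within slide 3. At 24 hr the reported 36 became 17 at 2-fold or more. For BW245C against untreated mice at 3 hr the reported 14 became 6 with the slide as a fixed and 7 as a random block, 23 with only the groups compared, 3 at 2-fold or more and 8 under 0.01, and at 24 hr the reported 48 became 26 within slide 2. For the difference between times the reported 32 became 5 with the fixed slide block and 16 at 2-fold or more. The change of Sult1e1 at 3 hr against untreated mice, -1.14, was 0.38 within slide 1 and -2.60 within slide 2. Normexp shrank the changes of dim probes, to -0.34 for Ugt1a6a and 0.51 for Sult2b1 at 3 hr and to 1.02 for Mgst2 at 24 hr, all still called. The cause of these shifts was not tested, apart from the stricter thresholds and fewer mice.

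Without 1 mouse the counts ranged from 10 to 15 (vehicle against untreated, 3 hr), 49 to 52 (24 hr), 4 to 8 (BW245C against vehicle, 3 hr), 32 to 39 (24 hr), 10 to 16 (BW245C against untreated, 3 hr), 47 to 49 (24 hr), 49 to 50 (vehicle, 24 hr against 3 hr) and 29 to 36 (difference between times). With the replicate number as a block the counts, in this order, were 14, 50, 6, 36, 15, 49, 49 and 32. No slide gave a value for vehicle at 24 hr or BW245C at 3 hr against untreated mice, or for the difference between times. Dim probes limit Sult2b1, Ugt1a6a, Mgst2 and Gsto2, which were not well above background on every array.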

Other observations

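Other gene groups tied to conjugation are read against all genes, of which 39.1% were lower and 29.8% higher in vehicle mice against untreated mice at 24 hr, and 17.6% were higher and 8.95% lower in BW245C mice against vehicle mice at 24 hr. Of 20 other conjugating transferases, such as methyl-, acetyl- and acyltransferases, 18 were lower in vehicle mice at 24 hr than in untreated mice (median log2 change -1.60) and 13 were higher in BW245C mice than in vehicle mice at 24 hr (median 0.77). Inmt, an amine N-methyltransferase, was at -6.90 and 2.52 in these comparisons. Of 34 regulators 27 were lower and 4 higher at 24 hr with vehicle, and 17 were higher and 1 lower with BW245C. Cux2, a transcription factor of female liver in mice, was at least 8.51-fold lower with vehicle at 24 hr and not above background in either ConA group at 24 hr, and Dbp, a clock output factor, was at 2.31. Nr1i3, the receptor CAR, was at -1.37 and 1.15, and Nr1i2, the receptor PXR, at -1.10 and 0.75; both were named after their values were seen. Of 28 NRF2 pathway genes, which include NRF2, its partners and its inhibitor beside its targets, 9 rose and 13 fell with vehicle at 24 hr, near those shares, and 6 rose and 5 fell with BW245C, with Maff, a small Maf factor that can partner NRF2, at 4.70 and -1.71 and Me1, malic enzyme, at -3.82 and 0.16, the last not called.

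Of 19 efflux and uptake transporters 13 were lower and 5 higher with vehicle at 24 hr, and 9 were higher and 5 lower with BW245C. Slco1a4, an uptake carrier for organic anions, was at -4.37 and 1.66, and Abcc1, an exporter of conjugates, at 2.19 and -0.92. Of 7 deconjugating enzymes 5 were lower and 1 higher with vehicle, and 3 were higher with BW245C, with the lysosomal sulphatases Arsb at -1.23 and Arsa at 1.10 in vehicle mice against untreated mice. Of 14 oestrogen and thyroid hormone genes 11 were lower and 1 higher with vehicle (median -1.47), and 7 were higher with BW245C, with Thrsp, a thyroid-responsive gene, at -5.37 and 0.08, the second not called.

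At 3 hr, in vehicle mice against untreated mice, 37.0% of all genes were lower and 25% higher. Of the 34 regulators 20 were lower and 7 higher, with Nr0b2, the corepressor SHP, at -4.36 and Tiparp, a target of the aryl hydrocarbon receptor, at 4.22. Of the 28 NRF2 pathway genes 13 were lower and 7 higher, near those shares, with Me1 at -2.31 and Maff at 6.45. Of the 20 other transferases 8 were lower and 1 higher, with Nat1 at -1.32 and Nnmt, which methylates nicotinamide, at 0.84. Of the 19 transporters 2 were lower and 5 higher, with Slco2b1 at -0.71 and Abcc1 at 1.40.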
